A study of Saccharomyces cerevisiae with 4 samples.

Results

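The histone genes of Saccharomyces cerevisiae were compared between the minimal glycolysis strain IMX372 and its reference strain CEN.PK113-7D, and none of them was called different between the strains. The members were the rows of the authors' table whose systematic name is that of HTA1 (YDR225W), HTA2 (YBL003C), HTB1 (YDR224C), HTB2 (YBL002W), HHT1 (YBR010W), HHT2 (YNL031C), HHF1 (YBR009C), HHF2 (YNL030W), HHO1 (YPL127C) or HTZ1 (YOL012C). Of these 10 names, 8 occur in the table, on 10 of its 5472 gene models. The names HHT1 and HHF1 do not occur, while HHT2 and HHF2 each stand on 2 models of equal length, 1 on chromosome 14 and 1 on chromosome 2. The chromosome 2 models lie between FLR1 and IPP1, with the H4 model before the H3 model, which is the place and order of HHF1 and HHT1 in the R64 reference genome of strain S288C. They lie 647 bases apart in the table, against 646 bases between HHF1 and HHT1 in R64. They are called HHT1 and HHF1 here by that position, so that all 10 genes have a model.

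Cultures grew aerobically in batch bioreactors at 30 °C and pH 5 on defined medium that held glucose at 20 g/L. RNA was sequenced from mid-exponential cells, with 2 libraries for each strain. IMX372 is a MATa haploid that lacks the 13 minor paralogs of glycolysis and ethanol formation. The labels write its disruptions as glk1::SpHis5, hxk1::KlLEU2 and tdh1::KlURA3. They list tdh2, gpm2, gpm3 and eno1 next, followed by pyk2, pdc5, pdc6, adh2, adh4 and adh5. It also carries the alleles ura3-52 and his3-1 and the joint allele of leu2-3 and leu2-112, and it shares MAL2-8c and SUC2 with the reference. CEN.PK113-7D, also MATa, is the prototrophic laboratory strain with none of these changes. The histone loci are not among the altered genes, and each group is 1 strain, so the deletions, the markers and any other difference between the strains cannot be told apart. The deposited values are FPKM, read fragments scaled to the length of the gene model and to the size of the library, given once per strain and pooled by the authors over its libraries. No SD, n or read depth can therefore be given beside any value, and whether the libraries of a strain came from separate cultures is not stated.

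The strain labels could be checked on 1 deletion. GPM3 was listed at 0 FPKM in IMX372 and had 57.7 FPKM in CEN.PK113-7D (q = 0.00735 in the authors' deposited table), while 10 of the 13 deleted genes were not tested and are listed at 0 in both strains. Only 11 of the 13 have a model under their name. Both samples of the authors' comparison are named as masked, so a listed 0 in CEN.PK113-7D cannot be read as absence of mRNA. All 6 genes that mark mating type a were expressed in both strains, the lowest being ASG7 with 21.8 FPKM in IMX372 and 20.1 FPKM in CEN.PK113-7D. MFA1, which encodes the a-factor pheromone, had 37538 FPKM in IMX372 and 33795 FPKM in CEN.PK113-7D, and MFA2, its second gene, had 56430 FPKM in IMX372 and 61347 FPKM in CEN.PK113-7D. STE6, the a-factor exporter, had 74.3 FPKM in IMX372 and 81.8 FPKM in CEN.PK113-7D. Of the genes that mark mating type alpha, MF(ALPHA)2 had 35.3 FPKM in IMX372 and 32.3 FPKM in CEN.PK113-7D, and the other 3 lay lower in both strains. None of the 6 a-specific and 4 alpha-specific genes was called, against 0.791% of all tested models, and their median log2 ratios were 0.01 and -0.16.

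Histones package DNA into nucleosomes, in which DNA is wound around an octamer of H2A, H2B, H3 and H4. Budding yeast makes each core histone from a pair of genes, and the genes stand in divergent pairs, H2A beside H2B and H3 beside H4, with a shared promoter between them. Their transcription is confined to S phase, when new DNA must be packaged. It is activated by Spt10 and by the cell cycle factors SBF and MBF, and outside S phase it is repressed by the HIR complex at all core histone loci but HTA2-HTB2. HTZ1 encodes the variant H2A.Z, which replaces H2A in nucleosomes beside promoters, and HHO1 encodes the linker histone H1.

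The copies of the H2A, H3 and H4 genes resemble each other so closely that reads of 51 bases can fit both, whereas the H2B copies share no stretch of that length. In R64 the coding sequences of HTA1 and HTA2 are 93.7% identical, those of HTB1 and HTB2 87.9%, those of HHT1 and HHT2 93.2% and those of HHF1 and HHF2 97.4%. The H3 copies encode the same protein, as do the H4 copies, whereas the H2A copies differ in 2 residues and the H2B copies in 4. The first 60 coding bases are given below from R64 (RefSeq) in the direction of transcription, with bases that differ between the copies in capitals.
HTA1 (chrIV:915530-915589, plus strand) and HTA2 (chrII:235733-235792, minus strand): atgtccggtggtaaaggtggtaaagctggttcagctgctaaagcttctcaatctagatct
HTB1 (chrIV:914653-914712, minus strand): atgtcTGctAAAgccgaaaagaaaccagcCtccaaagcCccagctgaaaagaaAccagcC
HTB2 (chrII:236492-236551, plus strand): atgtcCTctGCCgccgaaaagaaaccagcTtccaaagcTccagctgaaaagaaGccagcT
HHT1 (chrII:256331-256390, plus strand): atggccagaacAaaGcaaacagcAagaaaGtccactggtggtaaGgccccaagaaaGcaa
HHT2 (chrXIV:575991-576050, minus strand): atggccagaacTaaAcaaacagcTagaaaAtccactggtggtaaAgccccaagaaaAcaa
HHF1 (chrII:255625-255684, minus strand): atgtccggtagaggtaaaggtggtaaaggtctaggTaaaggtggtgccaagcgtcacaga
HHF2 (chrXIV:576727-576786, plus strand): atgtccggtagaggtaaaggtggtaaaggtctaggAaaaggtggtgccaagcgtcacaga
The H2A copies have no difference in this stretch, so a read of 51 bases from within it cannot tell HTA1 from HTA2, and the H4 copies differ in it at 1 base. Over the whole coding sequence, 4.3% of all windows of 51 bases in HTA1 occur a second time in the R64 genome, as do 11.6% in HHT1 and 20.6% in HHF1, and the shares are the same in their partner copies. None of the windows of HTB1, HTB2, HHO1 and HTZ1 occurs a second time. How the authors placed reads that fit 2 copies is not given in the sources used here, so the split between copies of H2A, H3 and H4 is uncertain. Sums over both copies hold such reads wherever they were placed, unless they were left out.

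The shared promoters carry matches to the element that Spt10 binds. The motif searched was TTCCNNNNNNTTCNC, on both strands, where N is any base. It was found in the R64 sequence between all 4 divergent pairs, 2 times in HTA1-HTB1 and 1 time in each of the other 3. Each stretch below is the plus strand of R64 (RefSeq) with 30 bases on either side, and capitals mark the matches, which read as the reverse complement where they lie on the minus strand.
HTA1-HTB1 (chrIV:915084-915181, plus strand): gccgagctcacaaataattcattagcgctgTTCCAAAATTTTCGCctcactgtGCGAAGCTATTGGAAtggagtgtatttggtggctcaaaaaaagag
HTA2-HTB2 (chrII:236078-236152, plus strand): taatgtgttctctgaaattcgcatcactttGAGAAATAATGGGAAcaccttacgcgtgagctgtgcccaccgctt
HHT1-HHF1 (chrII:255914-255988, plus strand): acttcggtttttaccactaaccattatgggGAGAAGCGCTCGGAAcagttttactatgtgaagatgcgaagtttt
HHT2-HHF2 (chrXIV:576316-576390, plus strand): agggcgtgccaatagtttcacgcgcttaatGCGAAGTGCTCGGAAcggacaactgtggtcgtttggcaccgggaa
Of 6018 protein-coding genes in R64, 208 or 3.46% hold a match within 600 bases before their start codon, and all 8 core histone genes are among them, whereas HTZ1 and HHO1 are not. These 8 genes share 4 promoters, and each match there counts for both genes of its pair. The share is a description and no test, since the motif may have been drawn from these same promoters. The MBF element ACGCG was found in the shared promoters 2 times in HTA1-HTB1, 4 times in HTA2-HTB2, 1 time in HHT1-HHF1 and 3 times in HHT2-HHF2, counting both strands and matches that overlap each other. It is a short motif that 27.4% of genes hold at least 1 time within 600 bases before their start codon. The counts per shared promoter cover the whole stretch between the start codons, so they are not on the same footing as the shares of genes. For SBF the form CGCGAAA was searched, which 6.43% of genes hold within 600 bases. It was found 2 times in HTA1-HTB1, where 1 match overlaps an MBF element, and 1 time in HHT2-HHF2. This form was not found in the other 2 shared promoters. Only these exact letters were searched for MBF and SBF, so a promoter without a match may hold another form of the site. HHO1 holds a match to each of these 2 letter strings within 600 bases before its start codon, whereas HTZ1 holds a match to neither. These matches describe the letters of the S288C reference and not binding in either strain, and the table's own assembly is that of CEN.PK113-7D.

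**Figure D1:**
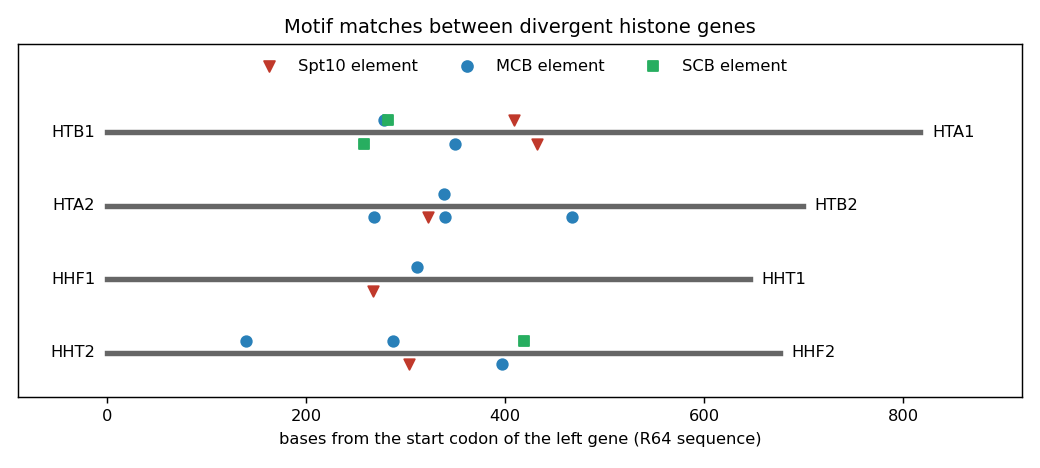
Motif matches between the divergent core histone genes in R64, drawn from the start codon of the left gene to that of the right gene; the x axis gives bases from the left start codon, and marks above or below a line are matches on the plus or minus strand. The Spt10 element (TTCCNNNNNNTTCNC) appears 2 times in the HTA1-HTB1 promoter and 1 time in each of the other 3.

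The H2A genes, which lie on chromosome 4 (HTA1, 914559 to 914957 on the CEN.PK113-7D assembly, here and for all models) and chromosome 2 (HTA2, 236026 to 236424), had slightly higher FPKM in the minimal glycolysis strain and were not called. HTA1 had 3679 FPKM in IMX372 and 3412 FPKM in CEN.PK113-7D, a log2 ratio of 0.11 (p = 0.507, q = 0.998 in the authors' deposited table). HTA2 had 3230 FPKM in IMX372 and 3051 FPKM in CEN.PK113-7D, a log2 ratio of 0.08 (p = 0.612 in the authors' deposited table). HTA1 was the higher copy in both strains, and it supplied 53.3% of the H2A FPKM in IMX372 and 52.8% in CEN.PK113-7D.

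The H2B genes, each beside its H2A partner on chromosome 4 (HTB1, 913346 to 913741) and chromosome 2 (HTB2, 237123 to 237518), had log2 ratios of opposite sign. HTB1 had 5640 FPKM in IMX372 and 5053 FPKM in CEN.PK113-7D, a log2 ratio of 0.16 (p = 0.343 in the authors' deposited table). HTB2 had 4208 FPKM in IMX372 and 4369 FPKM in CEN.PK113-7D, a log2 ratio of -0.05 (p = 0.740 in the authors' deposited table), and it was the one core histone gene with a lower value in IMX372. The share of H2B FPKM from HTB1 was 57.3% in IMX372 and 53.6% in CEN.PK113-7D. The log2 ratios of the H2B copies differed by 0.21, the widest gap among the 4 core histones, but no test of a difference between copies could be run on pooled values.

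The H3 genes lie on chromosome 2 (HHT1, 256962 to 257372) and chromosome 14 (HHT2, 569627 to 570037), and the copy on chromosome 2 had the larger ratio. HHT1 had 4847 FPKM in IMX372 and 4407 FPKM in CEN.PK113-7D, a log2 ratio of 0.14 (p = 0.40 in the authors' deposited table). HHT2 had 5315 FPKM in IMX372 and 5222 FPKM in CEN.PK113-7D, a log2 ratio of 0.03 (p = 0.877 in the authors' deposited table), which became -0.02 after a fit on level and coding length. HHT2 supplied 52.3% of the H3 FPKM in IMX372 and 54.2% in CEN.PK113-7D, with the reservation above on reads that fit both copies.

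The H4 genes, beside the H3 genes on chromosome 2 (HHF1, 256003 to 256314) and chromosome 14 (HHF2, 570714 to 571025), were the most abundant histone mRNAs per length in both strains and had the highest ratios of the family. HHF1 had 6523 FPKM in IMX372 and 5744 FPKM in CEN.PK113-7D, a log2 ratio of 0.18 (p = 0.264 in the authors' deposited table). HHF2 had 7318 FPKM in IMX372 and 6517 FPKM in CEN.PK113-7D, a log2 ratio of 0.17 (p = 0.310 in the authors' deposited table). By level, HHF2 ranked 48 in IMX372 and 54 in CEN.PK113-7D among 5435 tested models with values above 0 in each strain. Even the largest of these ratios, that of HHF1, is a 1.14-fold difference, and 78.6% of all tested models had an absolute log2 ratio no larger.

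The histone genes outside the core set were expressed far below it and were not called either. HTZ1 (chromosome 15, 303481 to 303885) had 653 FPKM in IMX372 and 612 FPKM in CEN.PK113-7D, a log2 ratio of 0.09 (p = 0.556 in the authors' deposited table). HHO1 (chromosome 16, 308711 to 309487) had 216 FPKM in IMX372 and 225 FPKM in CEN.PK113-7D, a log2 ratio of -0.06 (p = 0.713 in the authors' deposited table). H2A.Z mRNA stood at 0.0945 of the summed H2A FPKM in IMX372 and at 0.0946 in CEN.PK113-7D, so the balance of variant to canonical H2A mRNA was nearly the same in both strains. H1 mRNA stood at 0.0213 of the summed H3 FPKM in IMX372 and at 0.0234 in CEN.PK113-7D.

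**Figure D2:**
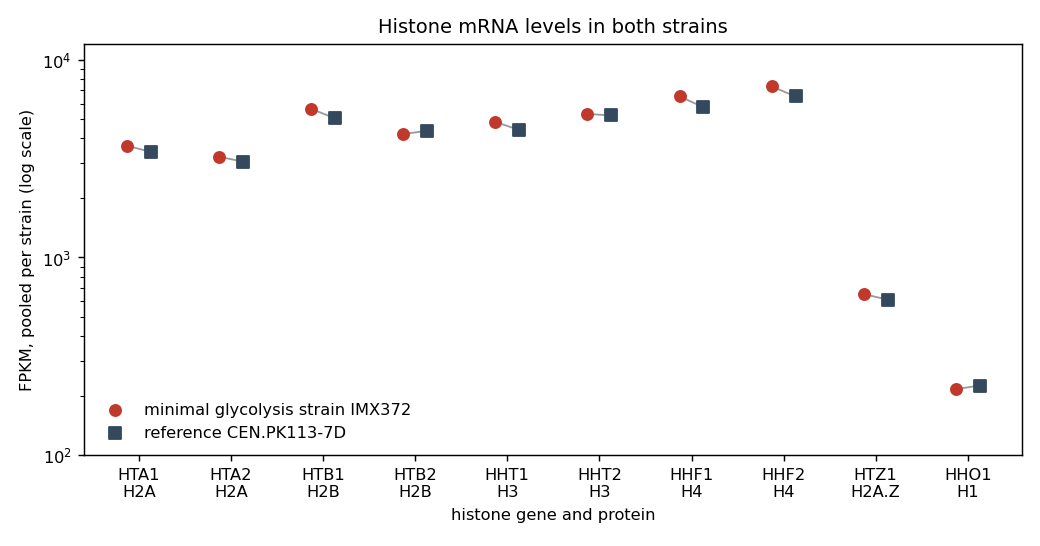
FPKM of the 10 histone genes, 1 pooled value per strain on a log scale, with IMX372 as circles on the left and CEN.PK113-7D as squares on the right of each gene. The core genes lie between 3051 and 7318 FPKM in either strain, far above HTZ1 and HHO1, and the 2 points of each gene lie close together.

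As a family the histone genes stood near the bulk of the transcriptome. A model was called when the authors' q was at most 0.05, and 0 of the 10 histone models were, against 0.791% of all tested models. In the authors' deposited table, which was made with Cuffdiff, the unadjusted p of the 10 lay between 0.264 and 0.877, so 0 were under 0.05, against 3.27% of all tested models. Log2 ratios above 0 were found for 8 of the 10 models and 7 of the 8 core models, against 53.1% of all tested models, and pairs of these genes share a promoter and sequence. The median log2 ratio was 0.10 over the 10 models and 0.12 over the core models, beside 0.01 over all tested models.

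Short models and abundant models also had medians above 0 in this comparison. The core histone genes are both, and the part of length and level in their ratios was not tested. The 448 tested models with coding lengths of 300 to 500 bases had a median log2 ratio of 0.07, and the 318 with at least 1000 FPKM in CEN.PK113-7D one of 0.06. After a polynomial fit of the log2 ratio on level and coding length over the uncalled models, the medians were 0.05 over the 10 histone models and 0.07 over the core models. The fit took up a share of 0.127 of the variance among the uncalled models. The same fit moved the log2 ratios of 7 genes by over 1.5 times or past 0, to 0.06 for HTA1, 0.03 for HTA2, 0.09 for HHT1, -0.02 for HHT2, 0.02 for HTZ1, -0.10 for HTB2 and -0.12 for HHO1. No test of these small offsets was possible. The smallest difference that the authors' test called anywhere was 1.57-fold, and among models with at least 1000 FPKM in CEN.PK113-7D it was 1.88-fold, so a change in histone mRNA of the sizes seen here is not one that this test called for any gene.

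**Figure D3:**
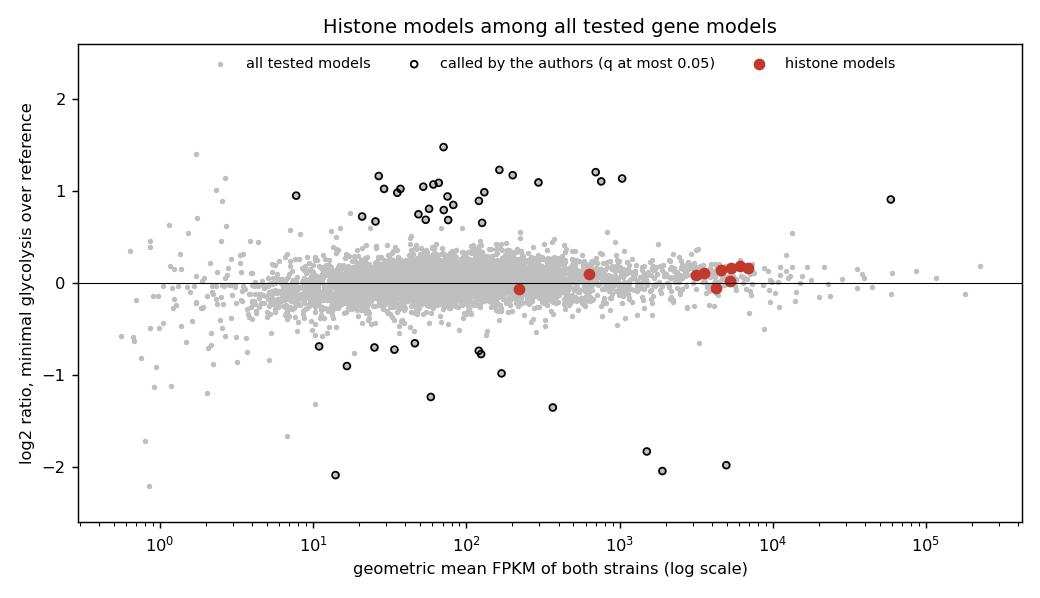
Log2 ratio of IMX372 over CEN.PK113-7D against the geometric mean FPKM of both strains, on a log axis, for all tested models (grey), the models the authors called (open circles) and the 10 histone models (red). The histone models lie between -0.06 and 0.18, within the band of uncalled models and apart from the called ones.

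Summed over both copies, mRNA for H4 exceeded that for H3, and mRNA for H2B exceeded that for H2A, in both strains. H4 summed to 13841 FPKM in IMX372 and 12260 FPKM in CEN.PK113-7D, a log2 ratio of 0.18. H3 summed to 10162 FPKM in IMX372 and 9628 FPKM in CEN.PK113-7D, a log2 ratio of 0.08. These sums put H3 at 0.734 of H4 in IMX372 and at 0.785 in CEN.PK113-7D, although the proteins are used in equal number. H2B summed to 9848 FPKM in IMX372 and 9421 FPKM in CEN.PK113-7D, a log2 ratio of 0.06. H2A summed to 6909 FPKM in IMX372 and 6462 FPKM in CEN.PK113-7D, a log2 ratio of 0.10. H2A thereby stood at 0.702 of H2B in IMX372 and at 0.686 in CEN.PK113-7D. These ratios compare different genes per length, and the effect of the short models on FPKM was not tested.

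**Figure D4:**
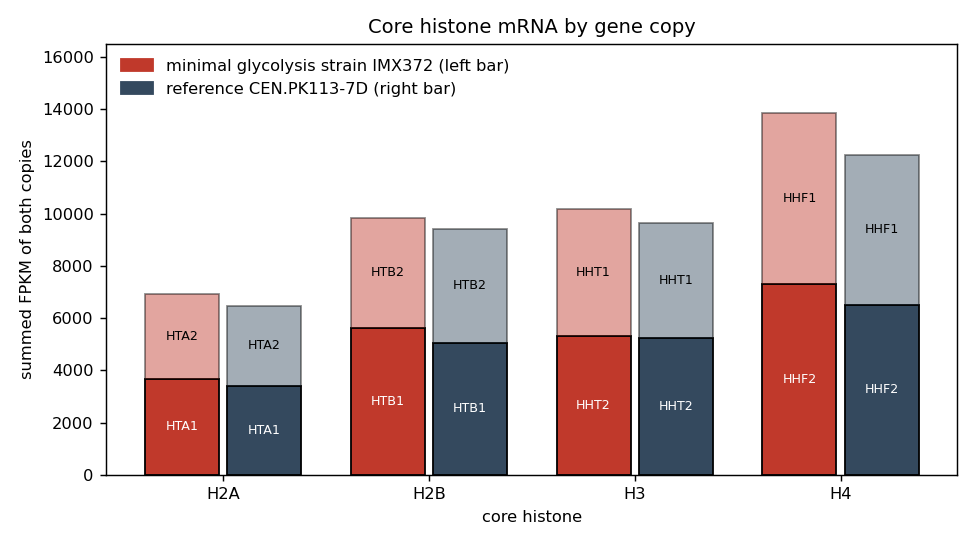
Summed FPKM of the 2 copies of each core histone, with IMX372 in the left bar and CEN.PK113-7D in the right bar; the lower, darker part is the copy with more FPKM and the upper, lighter part the other. H4 has the tallest bars, at 13841 FPKM in IMX372 and 12260 FPKM in CEN.PK113-7D. The share of the darker part runs from 52.3% (HHT2 in IMX372) to 57.3% (HTB1 in IMX372).

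By shared promoter, HTA2-HTB2 had the smallest ratio. Its genes summed to 7437 FPKM in IMX372 and 7419 FPKM in CEN.PK113-7D, a log2 ratio of 0.004. The sums of HHT1-HHF1 gave a log2 ratio of 0.16, those of HTA1-HTB1 0.14 and those of HHT2-HHF2 0.11. Genes of 1 promoter did not share 1 ratio: the log2 ratios of HTA1 and HTB1 lay 0.05 apart, those of HHT1 and HHF1 0.05, those of HTA2 and HTB2 0.14 and those of HHT2 and HHF2 0.14. Neither the gaps within promoters nor those between them could be tested.

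The genes that flank the histone loci were not called. Of the 12 nearest tested models 0 were called, against 0.791% of all tested models. Log2 ratios above 0 were found for 3 of the 12, against 53.1% of all tested models, and the median was -0.03. SIW14, a phosphatase gene next to HHT2, had 99.4 FPKM in IMX372 and 85.1 FPKM in CEN.PK113-7D, the highest ratio among them at 0.22. KTR5, a mannosyltransferase gene next to HHF2, had 31.5 FPKM in IMX372 and 35.4 FPKM in CEN.PK113-7D, the lowest at -0.17. ADK1, which encodes adenylate kinase and lies next to HTA1, had 2095 FPKM in IMX372 and 2117 FPKM in CEN.PK113-7D. IPP1, which encodes the inorganic pyrophosphatase and lies next to HHT1, had 2480 FPKM in IMX372 and 2428 FPKM in CEN.PK113-7D. ECM15, beside HTB2, had a log2 ratio of 0.13, and CRF1, UTP20, FLR1, TBF1, NAN1, HRD1 and PLB3 lay between -0.11 and -0.01.

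Factors that act on histone genes and histones, and genes of the cell cycle, were not called either. Across 10 lists of chromatin and cell cycle genes, 116 of 117 genes had a value, 0 were called at q, and 1 had an unadjusted p under 0.05 in the authors' Cuffdiff comparison, beside the 0.791% and 3.27% of all tested models. A median above 0 was found for 8 lists and a median below 0 for 2. The counts of genes above 0 given for the lists below stand beside 53.1% of all tested models.

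The regulators of histone transcription had a median log2 ratio of 0.09, with 9 of 12 above 0. RTT106, a chaperone that acts with the HIR complex at histone promoters, had 93.1 FPKM in IMX372 and 80.5 FPKM in CEN.PK113-7D, a log2 ratio of 0.21. ASF1, a chaperone of H3 and H4, had 117 FPKM in IMX372 and 104 FPKM in CEN.PK113-7D, a log2 ratio of 0.17. SWI6, the shared subunit of SBF and MBF, had a log2 ratio of 0.14. None of the other regulators, HIR subunits and SPT10 among them, had a larger absolute ratio than SWI6.

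Genes that carry, exchange and modify histones had log2 ratios between -0.18 and 0.27. The chaperones and importers had a median of 0.13, with 11 of 15 above 0, and CHZ1, a chaperone of H2A.Z, had 302 FPKM in IMX372 and 250 FPKM in CEN.PK113-7D, a log2 ratio of 0.27. FPR3 and FPR4, nuclear prolyl isomerases that bind histones, had log2 ratios of 0.26 and 0.24. The SWR1 and INO80 complexes, which exchange H2A.Z, had a median of 0.09, with 14 of 16 above 0, led by RVB1 at 0.26, SWC5 at 0.24 and VPS72 at 0.18. The histone modifying enzymes had a median of 0.04, with 17 of 25 above 0. Among those enzymes ESA1, the catalytic subunit of the NuA4 acetyltransferase, and HST4, a deacetylase of H3, had log2 ratios of 0.21 and 0.17, and HDA1, a deacetylase, one of -0.18. In the list for turnover of histone mRNA and protein the median was 0.05, with 5 of 8 above 0, and LSM1, an mRNA decay factor, UBC4, a ubiquitin-conjugating enzyme, and RAD53, a checkpoint kinase, had log2 ratios of 0.14, 0.10 and 0.08.

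The centromeric H3 variant had a larger ratio than any histone member. CSE4, which takes the place of H3 at centromeres, had 62.5 FPKM in IMX372 and 49.6 FPKM in CEN.PK113-7D, which is a log2 ratio of 0.33 that was not called (p = 0.0606, q = 0.998 in the authors' deposited table). The HMG-box genes of its list, NHP10, NHP6B, NHP6A and HMO1, had log2 ratios of 0.10, 0.08, 0.06 and -0.003, the last 2 being named for completeness after their values were seen, and the median of the list was 0.08, with 4 of 5 above 0.

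Histone mRNA follows S phase, so genes of each cell cycle phase were read beside it. The S phase and replication list had a median log2 ratio of 0.09, with 16 of 19 above 0, and none was called. CDC21, thymidylate synthase, had 91.0 FPKM in IMX372 and 75.3 FPKM in CEN.PK113-7D, a log2 ratio of 0.27. MCD1, a cohesin subunit, had 87.2 FPKM in IMX372 and 73.9 FPKM in CEN.PK113-7D, a log2 ratio of 0.24. POL30, the sliding clamp PCNA, had a log2 ratio of 0.22. These 3 were named because they had the largest absolute ratios of the list. POL1, CDC9 and POL2 of the same list had log2 ratios of -0.02, -0.09 and -0.12.

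Lists for the other phases had medians nearer to 0 or below it, but differences between lists were not tested. The highest ratio of any phase list was that of PCL1 in the G1 list, 0.33, above the S phase maximum of 0.27. Whether the S phase and G1 lists hold genes of distinct timing was not examined. The G1 list had a median of 0.04 over 4 genes, in which the cyclin gene PCL1 had 106 FPKM in IMX372 and 83.9 FPKM in CEN.PK113-7D, a log2 ratio of 0.33 (p = 0.0469, q = 0.998 in the authors' deposited table), and CLN1 and PCL2 had 0.10 and -0.06. The G2 and M phase list had a median of -0.04, with 3 of 7 above 0, and CLB2, a mitotic cyclin, ASE1, a spindle protein, and CDC20, an activator of the anaphase-promoting complex, had log2 ratios of -0.12, -0.09 and 0.09. The M/G1 list had a median of -0.02, with 2 of 5 above 0, and SIC1, a cyclin kinase inhibitor, EGT2 and CTS1, genes of cell separation, had log2 ratios of 0.18, -0.07 and 0.07. In a mixed culture, a larger share of cells in a phase and more mRNA per cell in that phase cannot be told apart, and the part of either in the histone values was not tested.

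**Figure D5:**
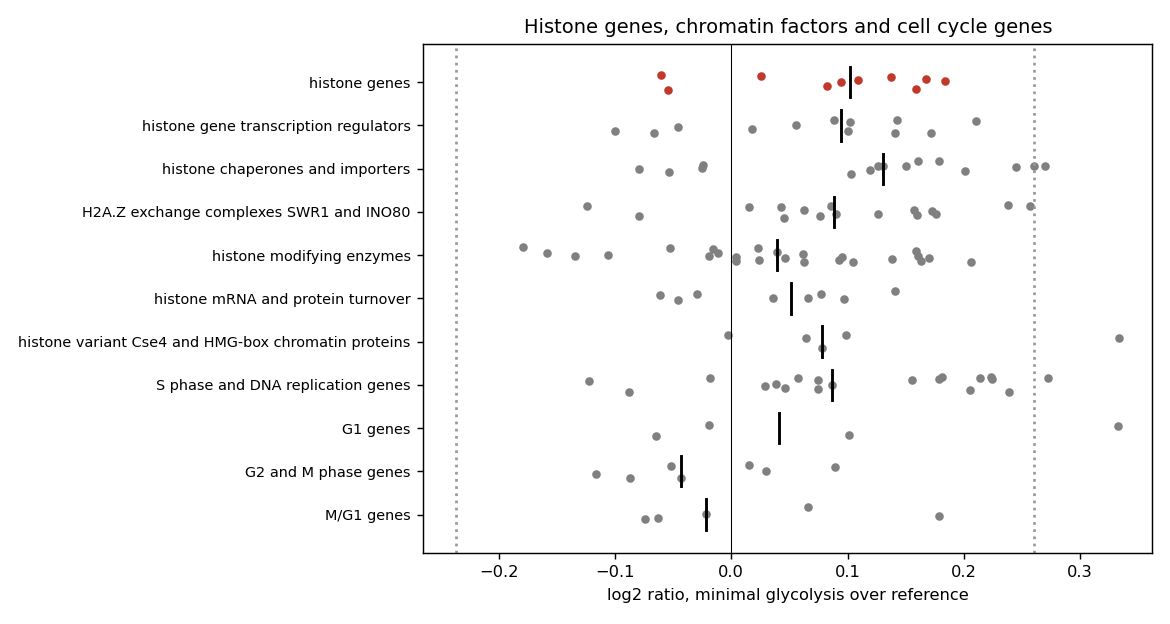
Log2 ratio of IMX372 over CEN.PK113-7D for the 10 histone genes (red) and for each chromatin and cell cycle list (grey), with each gene as a point and the median as a black bar. Dotted lines mark the 5th and 95th percentiles of all tested models, at -0.24 and 0.26, between which all 10 histone genes lie.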

How the data were processed

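RNA was sequenced in 4 libraries, 2 per strain, grouped by the strain label. The tools named in the submitters' processing notes are Cuffdiff, Cufflinks, SAMtools (0.1.7-r510), BWA (0.5.9-r16) and CASAVA (1.8.2), and per the labels reads of 51 bases were set against the CEN.PK113-7D genome. Per the file headers, the authors deposited 1 pooled FPKM per strain and gene model, a log2 ratio with its signed fold change, a test statistic (a score), a p-value and a q-value. The library kit named in the labels does not mark strand. Of 5472 models, 5437 were tested by the authors, 32 were not tested and 3 exceeded their data limit. Coding lengths are those of models without untranslated regions, since 97.2% are multiples of 3. They were taken as the span of each model from start to end, so any intron within a model is counted in them. The number of per-sample columns left unused was 0, and neither depth nor replicate values can be recovered.

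Log2 ratios were computed from FPKM without a pseudocount, and a model was called at the authors' q of at most 0.05. Lists used the longest tested model per gene. The trend fit used polynomials of degree 3 in log2 level and log2 coding length over 5393 uncalled models. Its code was run on simulated data with a straight-line trend and less noise than these data have. That run does not measure the precision of the fit here. Symbols came from R64 through systematic names, for 5434 models. Coding identity, windows and motifs were read from R64 only (Python 3.11.15, Biopython 1.88), and coordinates are counted from 1. Members, lists and tests were chosen with earlier results of these data known. Besides all members and their nearest neighbours, the text names called list genes and the 3 list genes of largest absolute log2 ratio that reach an FPKM of 10 in a strain. Outside that rule it names GPM3 as a check of the labels and ASG7 as the lowest a marker. Also outside it are SPT10, NHP6A, HMO1 and the S phase list genes below 0, POL1, CDC9 and POL2. In the alternatives, the q, the pseudocount, the centring, the trend fit, the model per name and the FPKM filter were varied.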

Additional observations from a re-analysis of the deposited data

How the results depend on the processing

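The count of called histone models was 0 under all 7 alternatives: a q of 0.01, the unadjusted p, a recomputed q, an FPKM of at least 10, a change of at least 1.5-fold, all models of a name, and 1 model per name. The last was chosen after seeing the data. Of these, the unadjusted p and the fold change, which was applied without a q, are the ones that could have added calls. The recomputed q adjusts the same p and is never below it, so it had to give 0 once the unadjusted p did. The remaining counts of 0 follow from their construction. Of 44 recomputed ratios of single genes, 43 kept their direction, and HHT2 changed sign to -0.024 after the fit on level and coding length. Adding the same FPKM to both strains cannot change a sign, nor can summing models of a name that all lie above 0. Only the centring and the fit could therefore have turned a gene, and most of the 43 were fixed in advance. The cause was not tested. The fit moved 6 other genes by over 1.5 times, HTA1 to 0.060, HTA2 to 0.033, HHT1 to 0.089, HTZ1 to 0.023, HTB2 to -0.103 and HHO1 to -0.121. Centring did so for 1 gene, HHT2, to 0.014.

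The median over the histone genes was 0.090 when centred on all models, 0.046 after the fit, 0.084 as a mean, and 0.088 with the models of a name summed or with 1 model per name. For the core genes the same settings gave 0.111, 0.074, 0.101, 0.096 and 0.096. Pseudocounts of 1 or 5 FPKM left both medians as they were to 2 decimals, and 1 FPKM added to each copy did so for the copy shares. Centred medians were 0.083 for transcription regulators, 0.119 for chaperones, 0.076 for the exchange complexes, 0.028 for modifying enzymes, 0.039 for turnover, 0.066 for the CSE4 list, 0.075 for S phase, 0.030 for G1, -0.055 for G2 and M, -0.033 for M/G1, -0.0016 for mating type a and -0.172 for mating type alpha. With an FPKM of at least 10, turnover had 0.066, S phase 0.121 and mating type alpha 0.095, the sign of the last resting on 2 genes. With the unadjusted p, 1 gene of the G1 list passed.

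No paired analysis was possible because the table pools the libraries of each strain. Likewise no replicate was left out, and the precision of single values is unknown.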
